A study of Homo sapiens with 10 samples.

Results

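Plasmacytoid dendritic cell genes were examined here as a set of 37 genes known from that cell type, picked out by symbol and all found among the 50868 genes of the deposited table. Plasmacytoid dendritic cells are blood cells that sense viral nucleic acid in endosomes and answer with large amounts of type I interferon. Their identity is held by E2-2, a basic helix-loop-helix factor of the E protein family encoded by TCF4, which binds DNA at E-boxes and works beside factors such as SPIB, RUNX2 and BCL11A. Surface molecules such as CLEC4C (BDCA-2) and LILRA4 (ILT7), the receptors TLR7 and TLR9 and a well developed secretory apparatus mark the mature cell.

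The cells measured were Kasumi-1, a human myeloid leukemia line that carries the t(8;21) fusion of RUNX1 with RUNX1T1 in every group. The 4 RNA libraries came from cells given a retrovirus for HA-tagged E2-2, HA-tagged E2A or HA-tagged HEB, or the MIGR1 vector as control, sorted for GFP and harvested 4 days after infection. They are called here the E2-2, E2A, HEB and vector libraries. All groups share the viral backbone, the GFP sort and the cell line, and each factor was added on top of the cells' own genes. The 6 ChIP-seq and input samples were not analysed here.

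Each group was 1 library of 14816708 to 17673090 counted reads, so there was no replicate check and no p-value. Levels are in CPM, counts scaled to a library of 1000000, and are compared between libraries for 1 gene, not between genes. Intervals in parentheses are 95% exact intervals that cover counting error only. A gene counted as measured in a comparison when both libraries together had at least 30 of its reads. It was called when it differed by at least 2-fold with an interval that left out 1. A called gene thus differed between these libraries, and cultures were not compared. Fewer cells with a transcript and less of it per cell cannot be told apart in such bulk RNA. TCF4 had 12484 reads in E2-2 and 1 to 4 in the other libraries, while TCF3 was highest in E2A (1312 CPM against 200 to 254) and TCF12 in HEB (836 CPM against 145 to 168), as the labels say.

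The promoters of 5 members that were higher in E2-2 than in vector are shown first, beside that of CLEC4C, a defining marker that stayed near 0 reads. Each line is the 250 bases before a RefSeq start site, on the gene's own strand, from the GRCh38.p14 table. Capitals mark every E-box match, the letters CANNTG, which read the same on both strands.
MZB1: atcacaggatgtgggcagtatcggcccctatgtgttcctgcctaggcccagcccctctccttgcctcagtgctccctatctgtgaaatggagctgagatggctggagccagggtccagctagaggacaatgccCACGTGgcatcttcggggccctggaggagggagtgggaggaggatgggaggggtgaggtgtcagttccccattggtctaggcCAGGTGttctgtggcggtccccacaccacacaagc
PLD4: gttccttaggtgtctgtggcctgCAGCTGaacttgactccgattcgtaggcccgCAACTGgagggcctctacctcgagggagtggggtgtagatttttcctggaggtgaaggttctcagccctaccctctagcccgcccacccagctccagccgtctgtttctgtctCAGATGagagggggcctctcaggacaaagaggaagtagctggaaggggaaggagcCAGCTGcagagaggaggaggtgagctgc
MAP1A: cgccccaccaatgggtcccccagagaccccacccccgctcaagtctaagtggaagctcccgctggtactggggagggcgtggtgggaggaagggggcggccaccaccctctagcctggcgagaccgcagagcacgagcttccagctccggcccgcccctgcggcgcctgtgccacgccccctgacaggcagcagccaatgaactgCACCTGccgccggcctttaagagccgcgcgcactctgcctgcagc
PLAC8: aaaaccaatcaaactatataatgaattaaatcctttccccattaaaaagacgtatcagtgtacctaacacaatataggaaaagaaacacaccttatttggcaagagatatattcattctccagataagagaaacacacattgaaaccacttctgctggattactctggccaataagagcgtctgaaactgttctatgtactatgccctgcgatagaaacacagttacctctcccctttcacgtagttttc
GPM6B: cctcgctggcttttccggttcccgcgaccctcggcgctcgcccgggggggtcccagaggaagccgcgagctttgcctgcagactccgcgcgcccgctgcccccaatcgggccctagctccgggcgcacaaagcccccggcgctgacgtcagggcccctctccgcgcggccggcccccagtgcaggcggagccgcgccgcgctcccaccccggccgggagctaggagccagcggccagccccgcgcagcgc
CLEC4C: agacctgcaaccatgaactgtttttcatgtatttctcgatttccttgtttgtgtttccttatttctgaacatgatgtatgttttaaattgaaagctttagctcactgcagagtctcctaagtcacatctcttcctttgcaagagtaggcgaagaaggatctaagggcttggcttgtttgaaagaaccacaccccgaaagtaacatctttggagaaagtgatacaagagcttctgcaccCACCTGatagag
These windows lie at chr5:139389914-139390163 on the minus strand for MZB1, chr14:104924629-104924878 on the plus strand for PLD4 and chr15:43510704-43510953 on the plus strand for MAP1A. Those of PLAC8 (chr4:83114730-83114979), GPM6B (chrX:13938639-13938888) and CLEC4C (chr12:7747376-7747625) lie on the minus strand.

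E-box letters were present in some of the windows shown and absent from others. In PLD4 there were 4 matches, and the CAGCTG form stood 227 and 28 bases before the start. The MZB1 window held CACGTG 117 bases and CAGGTG 35 bases before the start, and MAP1A had 1 match, CACCTG, 45 bases before it. PLAC8 and GPM6B had no match in these 250 bases, while the near-silent CLEC4C had CACCTG 12 bases before its start, which is not the outermost RefSeq start of that gene. GPM6B has a second start in the table (window chrX:13817044-13817343), and its 250 bases held 1 match, of the form CAGCTG. In the windows shown, the letters did not sort the members that were higher in E2-2 from CLEC4C. The windows were those at the RefSeq gene start of members called in both E2-2 and E2A against vector. PLD4 and CLEC4C were added by name. ALOX5AP and PACSIN1, also higher in E2-2 than in vector, had 1 match each in their 250 bases and are not shown. Whether the letters go with the calls was not tested. No peak was available to say whether any match was bound.

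Over the RefSeq table as a whole, the shares of promoter windows with these letters were a little larger for members than for all genes. The table had 38 windows for 28 of the 37 members, each of 300 bases (250 before and 50 after the start), among 35116 windows of all genes. CANNTG occurred in 76.3% of member windows and 68.7% of all windows. The form CAGCTG, a subset of CANNTG, occurred in 26.3% and 17.9%, and CACCTG or its other strand CAGGTG, also a subset, in 23.7% and 20.6%. The RUNX letters TGTGGT, counted on both strands as TGTGGT or ACCACA, occurred in 15.8% and 13.1%. The member shares rest on few windows, 29, 10, 9 and 6 of the 38 in the order given, and some members had several windows. The differences in share were not tested. In the 10 windows of the 7 members that were called in E2-2 against vector and had a window, CANNTG occurred in 80.0%. CAGCTG occurred in 20.0% of them, as did CACCTG, and the RUNX letters likewise.

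The members fell into a measured and a near-silent part. In each of the comparisons, 17 to 20 of the 37 were measured, and 17 were measured in no comparison. A member that passed this minimum of reads could do so through the library where it was high, so the shares below describe the measured members and not the set. In E2-2 against vector, 10 of 20 measured members were higher and 0 lower, beside 8.45% higher and 3.55% lower among 13884 genes. In E2A against vector, 6 of 18 were higher and 0 lower (4.89% and 1.58% of all measured genes), and in HEB against vector 1 of 17 was higher and 0 lower (2.55% and 1.23%). The median log2 fold of the measured members was 1.11 in E2-2, 0.42 in E2A and 0.27 in HEB, where that of all measured genes was -0.03, -0.01 and 0.01. These comparisons share the vector library.

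**Figure D1:**
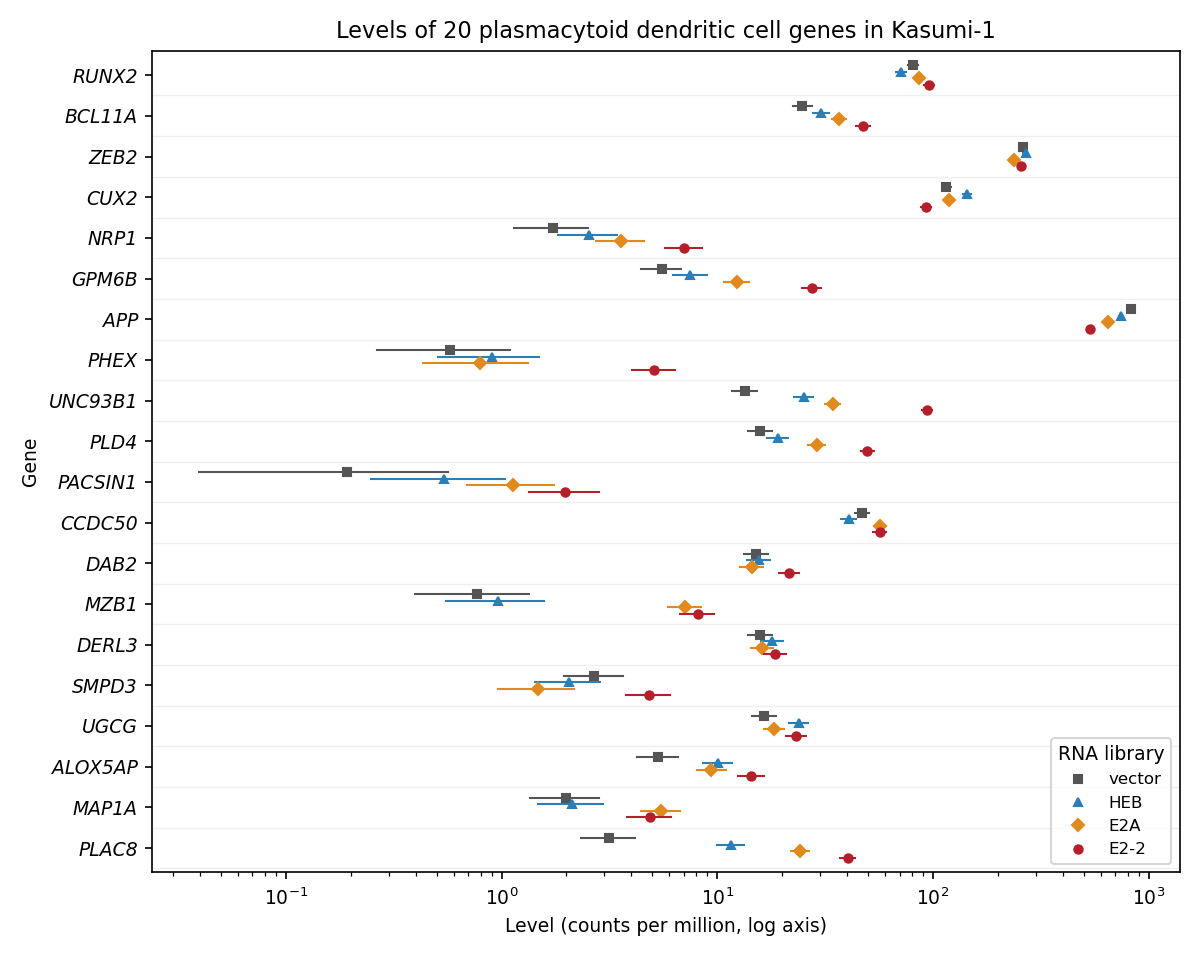
Points give the level of each of the 20 measured members in CPM (log axis), coloured by library, and horizontal lines give 95% counting intervals. CPM is not corrected for gene length, so points are compared within a row; UNC93B1 goes from 13.4 CPM in vector to 93.8 in E2-2, while ZEB2 stays between 237 and 269.

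Of the 8 members for endosomal sensing and traffic, 5 were measured in E2-2 against vector. Of these, 3 were higher and 0 lower (8.45% and 3.55% of all measured genes). The receptors themselves stayed at 0 or 1 read. UNC93B1, the chaperone that brings TLR7 and TLR9 from the endoplasmic reticulum to endosomes (ENSG00000110057, chromosome 11, 67991104 to 68004982), was at 13.4 CPM in vector, 25.1 in HEB, 34.2 in E2A and 93.8 in E2-2. The E2-2 library stood clear of the other 3. It was 7.0-fold (6.05 to 8.13) higher than vector and 2.74-fold (2.49 to 3.02) higher than E2A. Another 7 genes in the table are named UNC93B with a different number, and their sequences were not compared here. Together they held 0 reads in vector and HEB, 2 in E2A and 7 in E2-2. How any reads shared with those genes were counted is not given in the sources used here.

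PLD4, an exonuclease of endolysosomes that trims the nucleic acid such receptors would meet (ENSG00000166428, chromosome 14, 104924816 to 104937790), followed the same order. Its levels were 15.8 CPM in vector, 19.0 in HEB, 28.9 in E2A and 49.7 in E2-2. That made E2-2 3.15-fold (2.72 to 3.65) higher than vector and E2A 1.83-fold (1.57 to 2.14), the latter below the 2-fold rule. The last 547 bases of the PLD4 span overlap AHNAK2, which had only 26 to 42 reads in a library. PACSIN1, an F-BAR protein that shapes membranes in endocytosis, had 3 reads in vector, 9 in HEB, 20 in E2A and 30 in E2-2. It was 10.3-fold (3.20 to 52.7) higher in E2-2 than in vector, an interval as wide as its few reads allow.

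TLR7, the receptor for single-stranded RNA, had 1 read in vector and 0 in the other libraries. TLR9, which senses DNA rich in unmethylated CpG, had 1 read in vector, 1 in E2-2 and 0 in HEB and E2A. RNASE6, a secreted ribonuclease, had 1 read in E2A alone. By the one-sided 95% limit, a count of 0 allows up to 3 reads, or 0.170 to 0.198 CPM in these libraries. Neither receptor could thus be compared between libraries at this depth. CCDC50, a ubiquitin-binding protein, and DAB2, a clathrin adaptor, were measured but not called. DAB2 was 1.42-fold (1.2 to 1.68) higher in E2-2 than in vector and CCDC50 1.21-fold (1.10 to 1.34).

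Of the 10 surface and membrane members, 4 were measured in E2-2 against vector. Of these, 3 were higher and 0 lower (8.45% and 3.55% of all measured genes). NRP1, a coreceptor for semaphorins and vascular growth factor that also marks human plasmacytoid dendritic cells as BDCA-4 (ENSG00000099250, chromosome 10, 33177492 to 33336262), had 27 reads in vector, 42 in HEB, 63 in E2A and 106 in E2-2. E2-2 exceeded vector 4.04-fold (2.63 to 6.41), and E2A exceeded it 2.06-fold (1.29 to 3.36). GPM6B, a membrane glycoprotein of the proteolipid family (ENSG00000046653, chromosome X, 13771031 to 13938638), was at 5.51 CPM in vector, 7.49 in HEB, 12.3 in E2A and 27.4 in E2-2. All 4 libraries stood apart for it, and it was 4.96-fold (3.93 to 6.34) higher in E2-2 and 2.23-fold (1.73 to 2.89) in E2A.

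PHEX, a membrane endopeptidase best known from bone (ENSG00000102174, chromosome X, 22032441 to 22251310), differed in 1 library. It had 9 reads in vector, 15 in HEB, 14 in E2A and 77 in E2-2. Only the E2-2 library was high, 8.80-fold (4.40 to 20.0) above vector, 6.41-fold (3.60 to 12.3) above E2A and 5.60-fold (3.19 to 10.5) above HEB.

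APP, the amyloid precursor protein gene (ENSG00000142192, chromosome 21, 25880550 to 26171128), ran the other way. It stood at 831 CPM in vector, 743 in HEB, 647 in E2A and 535 in E2-2. E2-2 was 1.56-fold (1.51 to 1.60) lower than vector and E2A 1.28-fold (1.25 to 1.32) lower, neither of them past the 2-fold rule. With 8107 to 12967 reads in a library, all 4 libraries differed beyond counting error.

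The defining surface markers stayed near 0. CLEC4C, the C-type lectin BDCA-2, had 0 reads in vector and HEB, 2 in E2A and 1 in E2-2. LILRA4, the inhibitory receptor that goes with it, had 0 reads in all 4 libraries. LAMP5, a lysosome-associated membrane protein, had 1 read in E2A alone, and PTCRA, the pre-T cell receptor alpha chain, at most 2 in any library. LRRC26, a channel subunit, had 2 reads in each E protein library and 0 in vector. PTPRS, a receptor phosphatase, had 8 reads in E2-2 and 2 to 4 elsewhere, a ratio to vector of 2.06 (0.551 to 9.34).

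**Figure D2:**
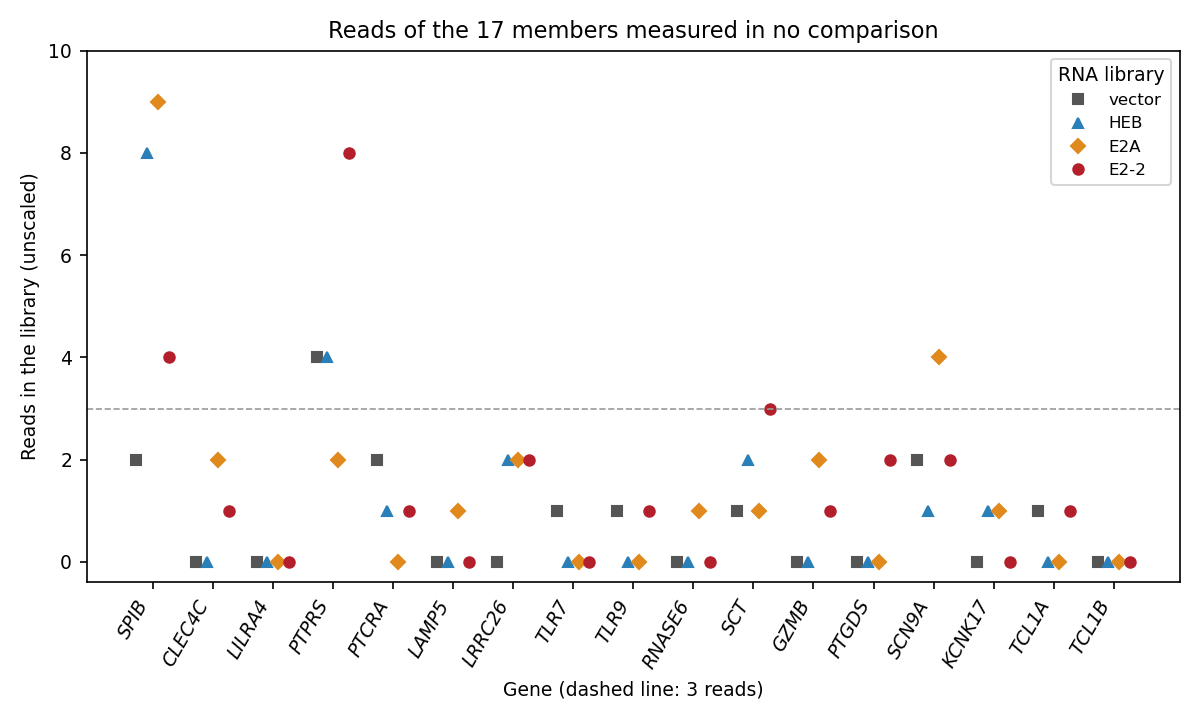
Unscaled reads per RNA library for the 17 members measured in no comparison, 1 point per library, with a dashed line at 3 reads. Of these genes 14 stay at or below 3 reads in every library, and the highest value is 9 reads, for SPIB in E2A.

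Of the 5 transcription factors of the set, 4 were measured, and 0 were called against vector in any of the 3 E protein libraries. Among all measured genes, 8.45% were higher and 3.55% lower in E2-2, 4.89% and 1.58% in E2A, and 2.55% and 1.23% in HEB. With 4 genes, 0 calls lies near those shares. BCL11A, a zinc finger factor that supports E2-2 in plasmacytoid dendritic cells (ENSG00000119866, chromosome 2, 60451167 to 60553567), came nearest to a call. Its level was 24.7 CPM in vector, 30.3 in HEB, 36.7 in E2A and 47.3 in E2-2, with E2-2 1.91-fold (1.69 to 2.17) above vector. The 4 libraries kept that order beyond counting error, although each step was small.

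RUNX2, a relative of RUNX1 that acts late in plasmacytoid dendritic cells, was at 80.7 CPM in vector, 71.1 in HEB, 86.4 in E2A and 95.5 in E2-2. Its E2-2 level was 1.18-fold (1.10 to 1.28) above vector. ZEB2, a zinc finger factor active in many myeloid cells, was at 260.0 CPM in vector and 255 in E2-2, a ratio of 0.981 (0.939 to 1.03). CUX2, a homeobox factor, was highest in HEB (144 CPM) and lowest in E2-2 (92.4), with 115 in vector and 119 in E2A. E2-2 lay 1.56-fold (1.46 to 1.67) below HEB for it. SPIB, the Ets factor of the lineage, had 2 reads in vector, 8 in HEB, 9 in E2A and 4 in E2-2. Its ratio of E2A to vector was 3.97 with an interval from 0.822 to 37.8, so no difference was detectable at this depth.

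Of the 5 members tied to secretion, 2 were measured in E2-2 against vector. Of these, 1 was higher and 0 lower (8.45% and 3.55% of all measured genes). MZB1, a cochaperone of the endoplasmic reticulum in cells that secrete much protein (ENSG00000170476, chromosome 5, 139387480 to 139390081), had 12 reads in vector, 16 in HEB, 125 in E2A and 123 in E2-2. E2A and E2-2 were high and HEB stayed with vector. E2-2 lay 10.5-fold (5.82 to 21.0) above vector and E2A 9.20-fold (5.08 to 18.3), and the 2 high libraries did not differ beyond counting error (1.15-fold, 0.887 to 1.48). Against HEB, E2A was 7.32-fold (4.33 to 13.2) higher.

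DERL3, which acts in the removal of misfolded proteins from the endoplasmic reticulum, had 246 to 297 reads in a library and was 1.17-fold (0.987 to 1.40) higher in E2-2 than in vector. GZMB, the granzyme B protease, had 2 reads in E2A, 1 in E2-2 and 0 in the others. SCT, the hormone secretin, had 1 to 3 reads in a library, and PTGDS, a prostaglandin D synthase, had 2 in E2-2 alone.

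Among lipid enzymes, ALOX5AP, which hands arachidonic acid to the leukotriene pathway (ENSG00000132965, chromosome 13, 30713478 to 30764426), was at 5.32 CPM in vector, 10.1 in HEB, 9.40 in E2A and 14.4 in E2-2. All 3 E protein libraries were above vector, E2-2 by 2.70-fold (2.09 to 3.52), HEB by 1.90-fold (1.45 to 2.50) and E2A by 1.77-fold (1.35 to 2.33), and E2-2 alone passed the 2-fold rule. SMPD3, a neutral sphingomyelinase (ENSG00000103056, chromosome 16, 68358325 to 68448688), had 42 reads in vector, 34 in HEB, 26 in E2A and 73 in E2-2. It was 1.79-fold (1.21 to 2.68) above vector in E2-2 and 1.83-fold (1.10 to 3.11) below it in E2A. The first 239 bases of its span overlap PRMT7, which had 657 to 839 reads in a library. UGCG, which makes glucosylceramide, was 1.40-fold (1.19 to 1.66) higher in E2-2 and 1.45-fold (1.23 to 1.70) in HEB than in vector.

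PLAC8, a small cysteine-rich protein abundant in plasmacytoid dendritic cells (ENSG00000145287, chromosome 4, 83090048 to 83137075), was the one member called in all 3 comparisons with vector. It had 49 reads in vector, 191 in HEB, 426 in E2A and 612 in E2-2. Each library stood above the one before it. Over vector, HEB was at 3.67-fold (2.67 to 5.14), E2A at 7.67-fold (5.70 to 10.5) and E2-2 at 12.8-fold (9.59 to 17.6). MAP1A, a microtubule-associated protein (ENSG00000166963, chromosome 15, 43510958 to 43531620), had 31 reads in vector, 35 in HEB, 97 in E2A and 74 in E2-2. It was higher than vector in E2A (2.76-fold, 1.83 to 4.28) and in E2-2 (2.46-fold, 1.59 to 3.86) and lay near vector in HEB (1.06-fold, 0.637 to 1.78).

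The channel genes SCN9A and KCNK17, for a sodium and a potassium channel, had at most 4 reads and at most 1 read in a library. TCL1A, a coactivator of AKT kinase, had 1 read in vector and 1 in E2-2, and its neighbour TCL1B had none in any library.

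**Figure D3:**
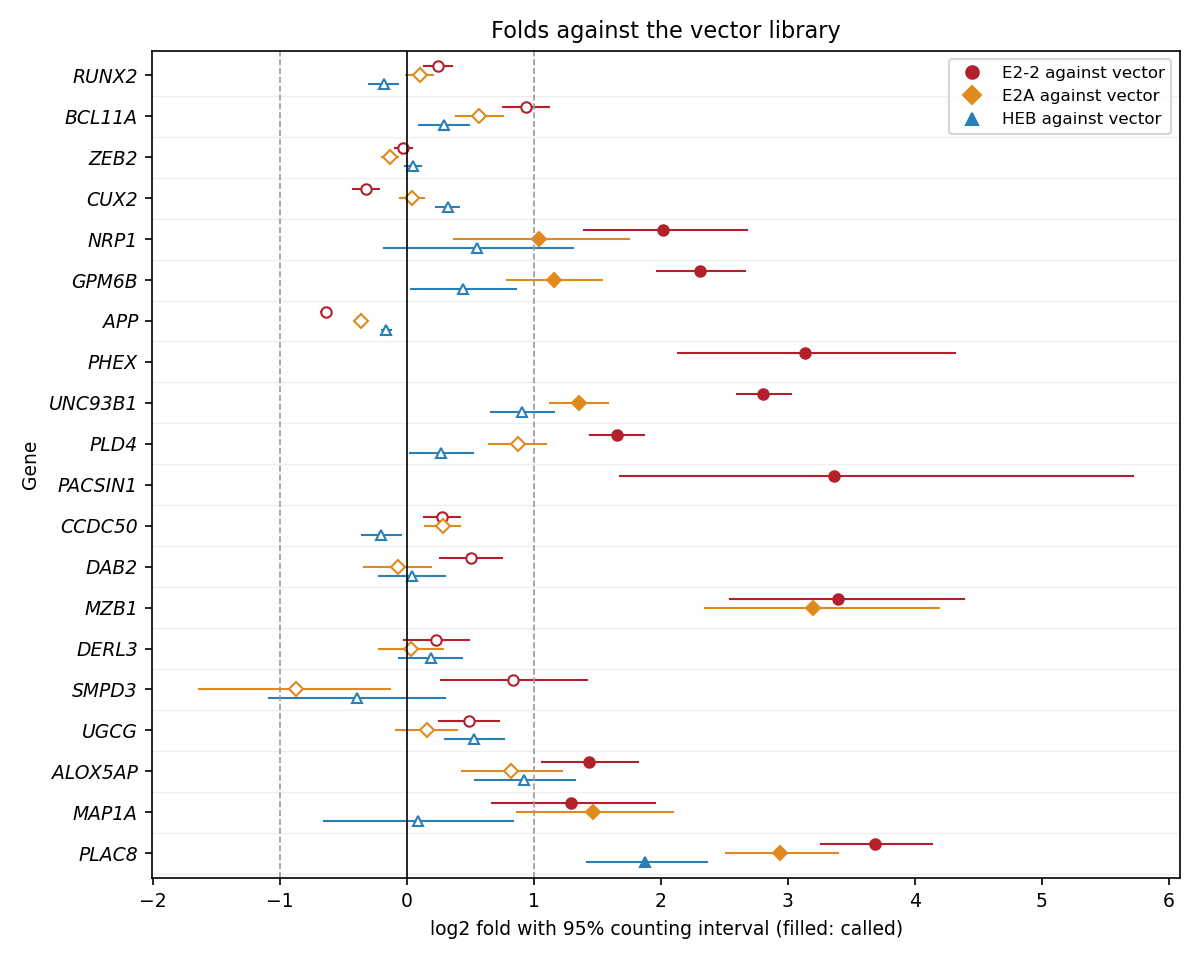
log2 fold of each E protein library over vector for the 20 members, with 95% counting intervals, dashed lines at 2-fold and filled points for called genes; a point is left out where both libraries together had under 30 reads. Filled points number 10 in E2-2, 6 in E2A and 1 in HEB, and all of them lie above 0.

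The E protein libraries were next set against each other directly, which describes how these 3 libraries differ for these genes. Each factor was 1 library with its own level of the added gene, so factor, dose and culture cannot be told apart. In E2-2 against E2A, 4 of 20 measured members were higher and 0 lower, beside 3.63% and 1.61% of 14066 genes. The 4 were PHEX (6.41-fold), SMPD3 (3.27-fold, 2.07 to 5.33), UNC93B1 (2.74-fold) and GPM6B (2.23-fold, 1.89 to 2.64). NRP1 lay just under the rule at 1.96-fold (1.42 to 2.72). PLAC8 was 1.67-fold (1.48 to 1.90) and PLD4 1.72-fold (1.54 to 1.93) higher, while MZB1 and MAP1A had intervals that include 1.

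E2-2 against HEB gave the most calls of the 3, with 10 of 20 higher and 0 lower (6.09% and 1.57% of 13891 genes). MZB1 led at 8.39-fold (4.96 to 15.1), before PHEX, UNC93B1 (3.73-fold, 3.34 to 4.17), GPM6B (3.65-fold, 2.98 to 4.50), PACSIN1 (3.64-fold, 1.68 to 8.71) and PLAC8 (3.50-fold, 2.97 to 4.13). NRP1 (2.75-fold), PLD4 (2.61-fold), SMPD3 (2.34-fold) and MAP1A (2.31-fold) completed the called members. In E2A against HEB, 3 of 18 were higher and 0 lower (2.38% and 0.696% of 13944 genes). They were MZB1, MAP1A (2.60-fold, 1.75 to 3.94) and PLAC8 (2.09-fold, 1.76 to 2.49).

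**Figure D4:**
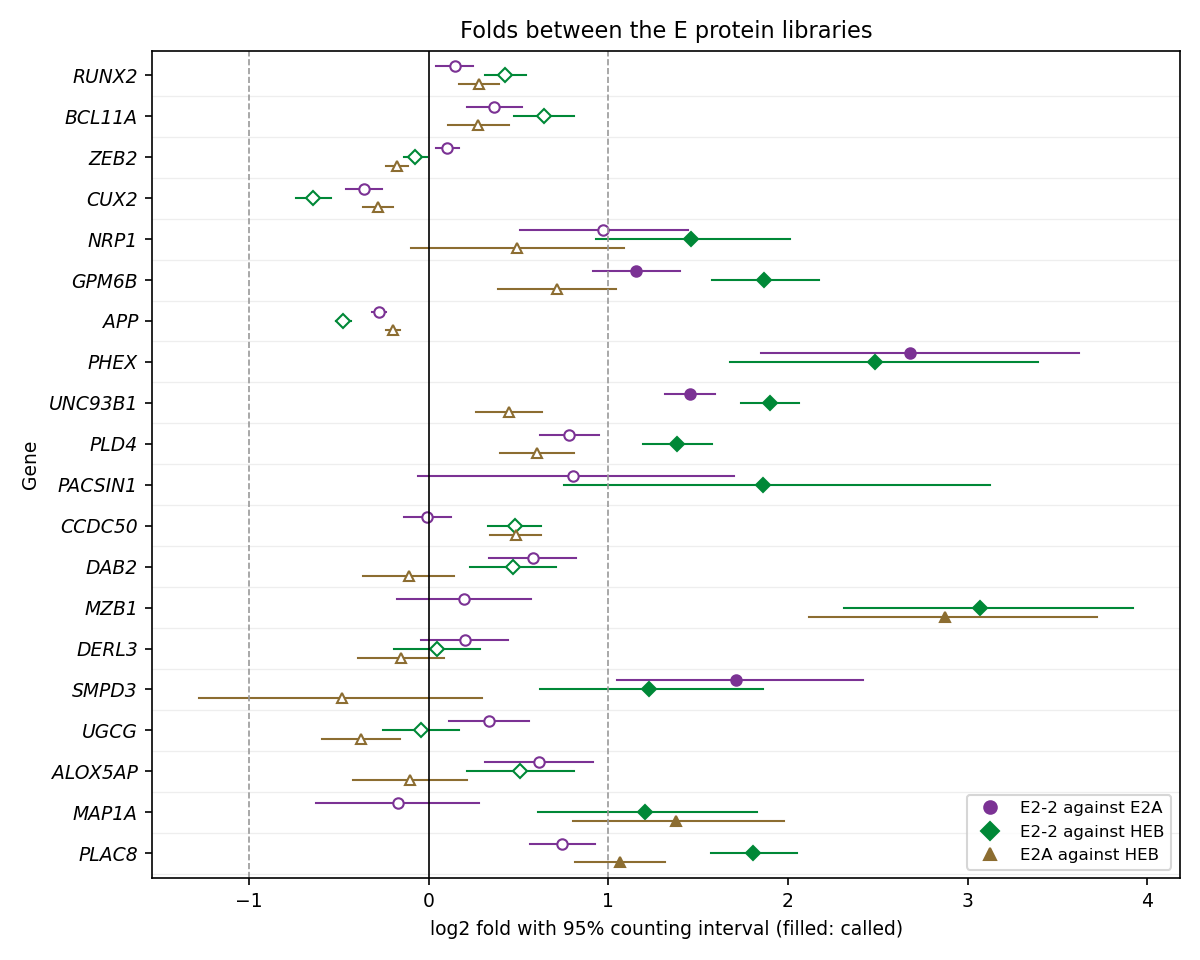
log2 fold between the E protein libraries for the 20 members, with 95% counting intervals, dashed lines at 2-fold and filled points for called genes; a point is left out where both libraries together had under 30 reads. MZB1, MAP1A and PLAC8 are filled in both comparisons with HEB, and PHEX, SMPD3, UNC93B1 and GPM6B are filled in E2-2 against E2A.

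With a threshold of 1.5-fold in place of 2, more members and more of all genes were called. Against vector, E2-2 then had 12 members higher and 1 lower (13.5% and 9.43% of all measured genes), E2A 8 higher and 1 lower (8.41% and 5.01%) and HEB 3 higher and 0 lower (4.8% and 3.73%). E2-2 against E2A had 8 higher and 0 lower (6.91% and 4.15%), E2-2 against HEB 11 higher and 1 lower (10.7% and 6.03%) and E2A against HEB 5 higher and 0 lower (5.21% and 2.51%).

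The levels of 8 of the 20 members ran from vector through HEB and E2A to E2-2, an order found in 12.9% of all measured genes. They were BCL11A, NRP1, GPM6B, UNC93B1, PLD4, PACSIN1, MZB1 and PLAC8. In 5 of them, BCL11A, GPM6B, UNC93B1, PLD4 and PLAC8, each library differed from its neighbour beyond counting error, as did 3.03% of all measured genes. Neighbours that did not differ beyond it were vector and HEB, and HEB and E2A, for NRP1, E2A and E2-2 for MZB1, and every neighbouring pair for PACSIN1. MZB1 had 28 reads in HEB and vector together, and its ratio there was 1.26 (0.558 to 2.91). APP ran in the reverse order. The order from vector to E2-2 was chosen with earlier results of these data known. PACSIN1 passed the minimum of reads through E2-2, with 3 reads in vector and 30 in E2-2. The shares of 12.9% and 3.03% are thus given as description only.

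Other genes of the lineage, taken from lists drawn up beside the members, were compared in the same way. Of 31 further plasmacytoid dendritic cell genes, 24 were measured in E2-2 against vector. Of these, 11 were higher and 0 lower, beside the 8.45% and 3.55% of all genes. The 11 include TCF4, the gene that the virus delivered to the E2-2 library, so its call was fixed by the design. By the bound nearest to 1, after TCF4 the highest were the nucleotide-sugar receptor gene P2RY14 (55.3-fold, 33.9 to 97.3), CLEC12A, an inhibitory lectin (39.4-fold, 13.2 to 194), and ID2 (10.1-fold, 8.85 to 11.5). ID2 codes for an inhibitor of E proteins and is low in mature plasmacytoid dendritic cells. IL3RA, the interleukin 3 receptor chain CD123 by which these cells are sorted, was among those not called, with 233 reads in vector and 238 in E2-2.

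Of 20 genes that signal or traffic with TLR7 and TLR9, 19 were measured in E2-2 against vector. Of these, 5 were higher and 0 lower (8.45% and 3.55% of all measured genes). Beside the member UNC93B1 these were the interferon factor gene IRF7 (8.18-fold, 6.75 to 10.0), the protease gene CTSS (3.43-fold, 2.76 to 4.30), the kinase gene IRAK4 (2.12-fold, 1.91 to 2.36) and CXorf21 (2.49-fold, 1.67 to 3.77), now named TASL, an adaptor for IRF5. MYD88, the adaptor that both receptors use, had 1954 reads in vector and 2080 in E2-2 and was not called. The median log2 fold of this list was 0.13. IRF7 was also counted with the further plasmacytoid dendritic cell genes.

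Markers of other cells moved in these libraries as well. Their counts in E2-2 against vector stand beside 8.45% higher and 3.55% lower among all measured genes. Of B lineage markers, 4 of 6 measured genes were higher and 1 lower in E2-2, with a summed level over the 12 listed of 58.3 CPM in vector, 92.2 in HEB, 285 in E2A and 208 in E2-2. IGLL1, the surrogate light chain lambda5, made up most of that sum with 38.5, 72.5, 259 and 169 CPM in the same order, and the other 11 genes together held 19.8, 19.8, 26.1 and 39.1 CPM. In E2-2 against vector, the recombinase gene RAG1 was 8.91-fold (4.89 to 17.8) higher, CD79A, a signalling chain of the B cell receptor, 4.83-fold (3.24 to 7.43), IGLL1 4.38-fold (4.00 to 4.79) and the B lineage factor gene PAX5 2.92-fold (2.19 to 3.95). CD22, an inhibitory B cell receptor, was 3.02-fold (1.39 to 7.29) lower, and MS4A1, EBF1 and BLK had at most 3 reads in any library.

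Of 10 monocyte and macrophage markers, 2 of 4 measured were higher and 0 lower, and their sum was 70.8, 73.9, 81.7 and 151 CPM in vector, HEB, E2A and E2-2. CSF1R, a receptor kinase of macrophages and their precursors, had 23 reads in vector, 113 in HEB, 191 in E2A and 646 in E2-2, so that E2-2 was 28.9-fold (19.1 to 45.9) above vector. S100A8, a calcium-binding protein of myeloid cells, had 0 reads in vector, 38 in HEB, 39 in E2A and 145 in E2-2, at least 49.7-fold higher in E2-2 than a floor of 3 reads in vector. Its partner S100A9 held most of the sum, with 59.1 CPM in vector and 90.2 in E2-2, while CD14, FCGR3A and FCN1 had 3 reads or fewer throughout. Of 8 plasma cell markers, which include the members MZB1 and DERL3, 3 of 6 were higher and 0 lower, and the sum was 317, 360.0, 408 and 504 CPM. XBP1, which was not called, gave 235, 263, 284 and 360 CPM of that sum. The other 7 genes together held 81.8, 97.5, 124 and 144 CPM. PRDM1, a plasma cell regulator gene, had 2 reads in vector, 146 in HEB, 264 in E2A and 563 in E2-2, a ratio of E2-2 to vector of 290 (79.8 to 2397). IRF4, also listed with the further plasmacytoid dendritic cell genes, was 2.81-fold (1.86 to 4.32) higher, MZB1 was the third, and TNFRSF17 and JCHAIN had at most 3 reads in any library.

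Of 13 conventional dendritic cell markers, 2 of 6 measured genes were higher and 1 lower, and the sum was 55.8, 70.2, 175 and 223 CPM. ID2, already counted with the further plasmacytoid dendritic cell genes, gave 16.4, 27.6, 135 and 165 CPM of it, and the other 12 genes together 39.4, 42.6, 40.3 and 57.4 CPM. THBD, which codes for thrombomodulin, was 5.76-fold (4.54 to 7.37) higher in E2-2 than in vector, and ITGAX, the integrin chain CD11c, 4.84-fold (3.40 to 7.05) lower. CLEC9A, XCR1, CADM1, CD1C, CLEC10A, FCER1A and CLEC4A had at most 3 reads in any library. The part of any of these genes' sources in the members' folds was not tested. Kasumi-1 myeloblast markers were present in all libraries, with 170661 to 298092 reads for MPO. Of the 10 listed, 1 was called higher in E2-2 than in vector and 0 lower, CD33 at 4.08-fold (3.68 to 4.54). Below the 2-fold rule, 7 of the 10 had an interval under 1 in that comparison, beside 30.8% of all measured genes. The granule protein genes AZU1 (1.93-fold, 1.87 to 2.00) and PRTN3 (1.89-fold, 1.85 to 1.93) were lowest against vector, before the stem cell marker CD34 (1.53-fold, 1.45 to 1.61) and the elastase gene ELANE (1.53-fold, 1.47 to 1.59). RUNX1T1, MPO and KIT were the other 3, and PRTN3 was called lower against HEB (2.52-fold, 2.47 to 2.56).

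**Figure D5:**
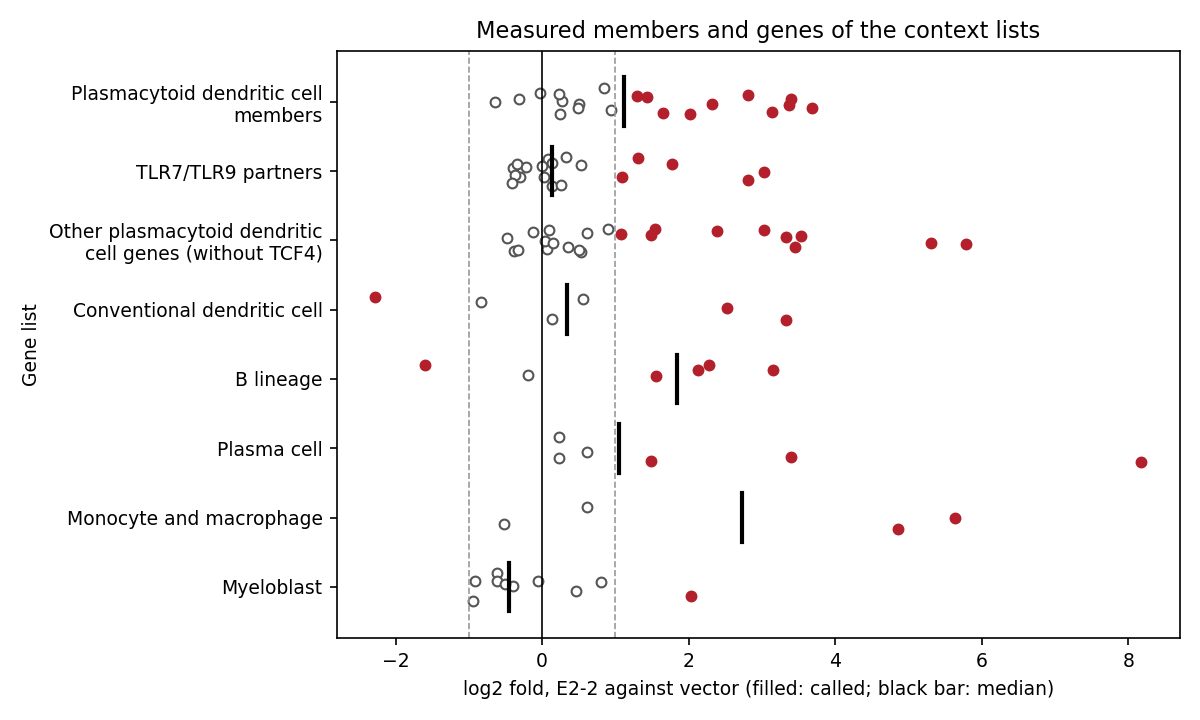
log2 fold of E2-2 over vector for measured members and for measured genes of the other lists, 1 point per gene, filled where called, with a black bar at the list's median and vertical jitter only to separate points. The list of other plasmacytoid dendritic cell genes is drawn without TCF4 and without a bar; the median lies at 1.11 for the members, 0.13 for TLR7 and TLR9 partners and -0.45 for myeloblast markers.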

How the data were processed

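RNA was taken from GFP-positive sorted Kasumi-1 cells and made into libraries with a TruSeq kit, per the labels' protocols. Tools listed in the submitters' processing notes, with no role given, are HTSeq 0.9.1, TopHat2 2.0.9, MACS2 2.1.1.20160309 and Bowtie2 2.2.9. Annotation and strand setting: not given in the sources used here, so overlapping and antisense genes are uncertain. The authors deposited raw read counts per gene for 4 libraries and, per the file headers, FPKM values, which served only as an alternative. All 37 members overlapped their RefSeq GRCh38.p14 gene.

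Counts were scaled by TMM in edgeR 4.0.16 (R 4.3.3). With 1 library per group no edgeR test could be run. Folds carry exact conditional binomial (Clopper-Pearson) intervals and CPM values exact Poisson intervals, computed in Python 3.11.15 with scipy 1.17.1 over the whole table. Reads may not be independent molecules. For folds, 3 reads replaced a count of 0, and pairs with at most 3 reads in each library were left without one. The call rule was tested on simulated data. Results for 1 listed gene are not reported here. The members, gene lists and tests were chosen with earlier results of these data known. All members are accounted for by role. Genes of other lists are named where called in E2-2 against vector, up to 4 per list, by the interval bound nearest to 1, not counting members. Other genes that are named, CD22 among them, were chosen after their values were seen. Alternatives were DESeq2 1.42.0 size factors, total counts, other minimums of reads, FPKM and a lower fold threshold.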

Additional observations from a re-analysis of the deposited data

How the results depend on the processing

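Scaling by DESeq2 size factors or by total counts, and the authors' FPKM, moved the median of all measured genes by under 0.1 on the log2 scale, and every member called against vector stayed called in its direction under them. NRP1 in E2-2 against E2A passed the 2-fold rule with total counts and with FPKM (2.01-fold in both). Under every scaling and both other read minimums, the measured members' median log2 fold stayed between the median lower and upper bounds of their intervals. That span is as wide as a typical interval of a single gene, so it is a loose check. With at least 100 reads, 2 members were higher in E2-2 against E2A in place of 4. Calls were lost in other comparisons too. PHEX and PACSIN1 dropped out of E2-2 against vector (86 and 33 reads) and of E2-2 against HEB (92 and 39 reads). NRP1 dropped out of E2A against vector (90 reads). A threshold of 1.5-fold in place of 2 gave 8 members higher in that comparison (6.91% of all measured genes), 3 in HEB against vector (4.8%) and 5 in E2A against HEB (5.21%). It gave 1 lower member each in E2-2 against vector (9.43% of all), E2A against vector (5.01%) and E2-2 against HEB (6.03%), where the main rule gave 0. No paired analysis was possible because each group has 1 library and the labels give no replicate numbers. Depth limited the near-silent members: with 0 to 9 reads in a library, only differences of many fold could have been seen, and no fold that could be given for them had an interval without 1.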
